A study of Homo sapiens with 6 samples.

Results

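The transcripts described here were those of 9 chemokine ligands that draw neutrophils, monocytes and lymphocytes, CXCL1, CXCL2, CXCL3, CXCL5, CXCL8, CXCL16, CCL2, CCL5 and CCL20, and of the chemokine receptor CXCR4. The members were chosen by gene symbol, and all 10 had a row among the 17631 genes of the files. They were measured by RNA-seq in MDA-MB-231, a human cell line of triple-negative breast cancer (TNBC). Of the 6 libraries, 3 came from cells given vehicle and 3 from cells given 30 µM PDBAG1 for 24 h. PDBAG1 is a synthetic peptide that joins a cell-penetrating sequence to a fragment of the enzyme GPD1, no group given the cell-penetrating sequence alone was among the samples, and the comparison asked how the transcriptome of the line responded to it. All libraries came from the same unmodified line in culture, so that the model held no host tissue. The labels also name breast cancer tissue as the source, but the protocols describe cultured cells.

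Chemokines are small secreted proteins that bind G protein-coupled receptors on leukocytes and guide their migration. The CXC ligands with a glutamate-leucine-arginine (ELR) motif ahead of their first cysteines act through CXCR2, and CXCL8 also through CXCR1, and they recruit neutrophils. CCL2 recruits monocytes through CCR2, CCL5 acts on T cells and monocytes, CCL20 acts through CCR6, and CXCL16 is made as a membrane protein that binds CXCR6. Many of these genes are induced by interleukin-1 and TNF through NF-kB, and several of their mRNAs are short-lived. Tumour cells of the basal and mesenchymal kind often secrete CXCL1, CXCL8 and CCL2.

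Values are TPM, a level per transcript length that is scaled to the same total in each library and can be compared between genes, as deposited, with the mean ± SD over the 3 libraries of a group. TPM keeps no read depth, so the counting error behind a value is unknown. Each library held 12392 to 12611 genes at 1 TPM or more. The SD of log2 differences over genes was 0.14 to 0.18 between libraries of 1 treatment and 0.28 to 0.30 between treatments. Tests were made with limma on log2(TPM + 1) over the 12582 genes that reached 1 TPM in no fewer than 3 libraries. The p values were adjusted by Benjamini-Hochberg across all of them, and log2 fold changes are PDBAG1 minus vehicle on this scale, which understates the change of low genes. In bulk RNA, fewer cells expressing a gene and less RNA per cell cannot be told apart. Of the line's markers, VIM was at 4270 ± 87.5 TPM and CD44 at 321 ± 9.24 TPM with vehicle (SD, n = 3 per group), whereas ESR1 was at 2.26 ± 0.240 TPM and PGR and CDH1 stayed under 1 TPM in every library.

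Of the 10 members, 9 passed the filter on low values and were tested. With PDBAG1, 5 of them rose at an adjusted p under 0.05 (CXCL2, CXCL3, CXCL8, CCL2 and CCL20) and 1 fell (CXCL1). Over all genes tested, 21.7% rose and 15.9% fell at this threshold, 37.6% in either direction. At a change of at least 1.5-fold as well, 4 members rose (CXCL2, CXCL3, CXCL8 and CCL20), and none fell, beside 2.86% and 0.477% of all genes tested (3.34% in either direction). The median log2 fold change of the 9 members was 0.48, against 0.03 over all genes tested. CXCL5 stayed near 0 in both groups, and CCL5, CXCL16 and CXCR4 were low and did not pass the test.

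**Figure D1:**
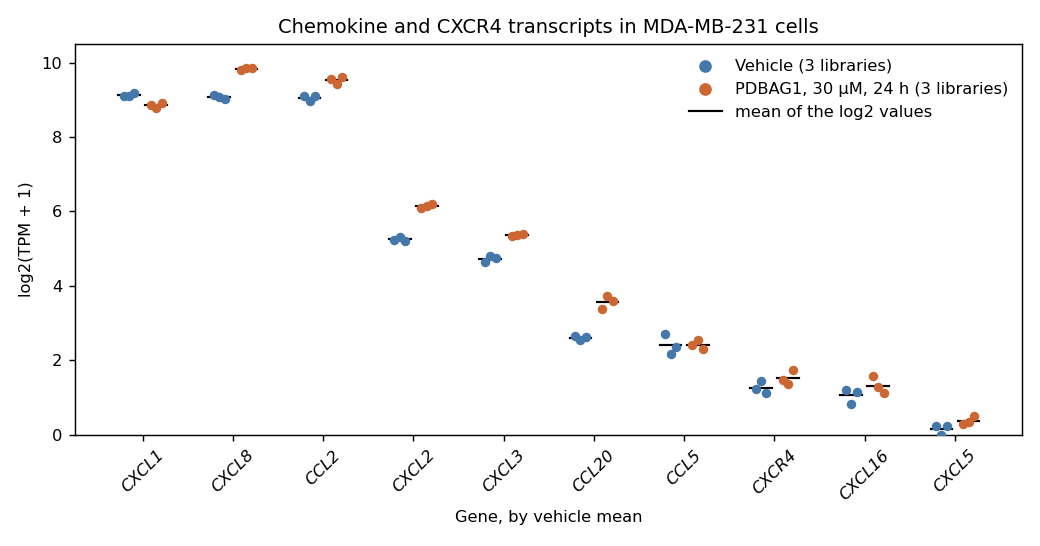
Level of each member, as log2(TPM + 1), in the 3 vehicle and 3 PDBAG1 libraries, with genes ordered by vehicle mean and bars at the mean of the log2 values. CXCL1, CXCL8 and CCL2 lie between 503 and 578 TPM with vehicle and separate with PDBAG1, where CXCL8 is highest and CXCL1 lowest of these 3, and CXCL5 lies near 0 throughout.

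The line given vehicle expressed 3 chemokines at a far higher level than the rest. CXCL1 was at 551, 551 and 578 TPM in the vehicle libraries. CXCL8, the classical neutrophil attractant, was at 554, 535 and 519 TPM. CCL2, the monocyte attractant, was at 549, 503 and 545 TPM. CXCL8 overlapped with both of the others, whereas every vehicle value of CXCL1 lay above those of CCL2 by a narrow margin. By vehicle mean CXCL1, CXCL8 and CCL2 ranked 231, 244 and 248 among the 17631 genes. CXCL2 followed with a vehicle mean of 37.0 ± 1.24 TPM and CXCL3 with 25.6 ± 1.51 TPM (SD, n = 3 per group), and the values of this pair did not overlap. CCL20 and CCL5, at 5.08 ± 0.234 and 4.43 ± 1.05 TPM, could not be placed in an order beyond their spread, nor could CXCR4 and CXCL16, at 1.41 ± 0.277 and 1.10 ± 0.279 TPM. CXCL5 was lowest, at 0.113 ± 0.0981 TPM.

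The genes of the 5 ELR-containing ligands lie in one cluster on chromosome 4 (GRCh38, GENCODE v44). From CXCL8 to CXCL2 the cluster spans 359 kb. CXCL8 lies at 73740519 to 73743716 and CXCL1 at 73869393 to 73871308, both on the plus strand. CXCL5 (73995642 to 73998677), CXCL3 (74036589 to 74038807) and CXCL2 (74097040 to 74099196) are on the minus strand. The canonical transcript of each has 4 exons. Their promoters are shown here because these genes share an NF-kB-like motif at about the same place while their levels and responses differed. The sequences are those of RefSeq (GRCh38.p14), read 5′ to 3′ on the strand of the gene, from base -130 to base -51 counted from the RefSeq start, and the capitals mark an NF-kB motif, searched on both strands. The longer form searched was GGG, any 2 bases and TTTCC, and the shorter form was GGAATTTCC.
CXCL1 (chr4:73869263-73869342, plus): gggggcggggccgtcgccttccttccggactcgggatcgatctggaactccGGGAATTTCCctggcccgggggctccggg
CXCL2 (chr4:74099246-74099325, minus): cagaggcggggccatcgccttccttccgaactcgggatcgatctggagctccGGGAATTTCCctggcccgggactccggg
CXCL3 (chr4:74038740-74038819, minus): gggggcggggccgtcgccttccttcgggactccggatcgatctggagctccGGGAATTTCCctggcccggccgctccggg
CXCL5 (chr4:73998728-73998807, minus): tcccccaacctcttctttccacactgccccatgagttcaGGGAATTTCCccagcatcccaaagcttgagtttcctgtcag
CXCL8 (chr4:73740439-73740518, plus): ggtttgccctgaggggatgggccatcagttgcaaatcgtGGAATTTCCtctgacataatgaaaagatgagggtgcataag
CCL20 (chr2:227813712-227813791, plus): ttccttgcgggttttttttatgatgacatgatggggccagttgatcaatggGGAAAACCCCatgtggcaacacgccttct

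The same GGGAATTTCC was found in CXCL1, CXCL2, CXCL3 and CXCL5, starting at base -79, -78, -79 and -91, respectively. CXCL8 held the shorter GGAATTTCC at base -91, and CCL20 held the longer motif on the opposite strand at base -79. The windows searched were longer than the stretches printed above and ran from 250 bases before the start to shortly past it. The longer form was present in 1.91% of the 35116 RefSeq promoter windows searched and the shorter form, which can lie inside the longer, in 0.461%. An AP-1 motif, TGANTCA, was found in CXCL8 among the members, at base -137, and in 7.71% of all windows. ACGTG, the core that hypoxia-inducible factors recognise, was found in no member's window, whereas 21.4% of all windows held it. RefSeq windows were matched for 7 of the 10 members. Those of CXCL16, CCL2 and CCL5 were not analysed here. Over the 250 bases before the start, CXCL1 was 81.4% identical to CXCL3 and 68.0% to CXCL2, and 42.8% identical to CXCL8. These matches describe the letters of the windows and say nothing of whether a factor was bound.

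Of the 3 abundant chemokines, CXCL8 rose most. With PDBAG1 it was at 892, 927 and 929 TPM, all above the highest vehicle library, which was at 554 TPM. Its mean went from 536 ± 17.7 to 916 ± 20.7 TPM (SD, n = 3 per group), 1.71-fold. The log2 fold change was 0.77 ± 0.04 (SE, limma adjusted p = 2.95e-09). In TPM this was a gain of 380, the largest of any member.

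CXCL2 and CXCL3, close copies of CXCL1 that bind the same receptor, also rose. CXCL2 was at 36.4, 38.5 and 36.3 TPM with vehicle and at 67.4, 70.2 and 73.1 TPM with PDBAG1. The groups did not overlap, and the log2 fold change was 0.91 ± 0.05 (SE, limma adjusted p = 2.26e-08). CXCL3 was at 23.9, 26.8 and 26.0 TPM with vehicle and at 39.7, 40.5 and 40.7 TPM with PDBAG1, again without overlap. Its log2 fold change was 0.64 ± 0.06 (SE, limma adjusted p = 2.14e-06).

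CXCL1, the most abundant member with vehicle, moved the other way. With PDBAG1 it was at 467, 440 and 480 TPM, and the highest of these lay below the lowest vehicle library, at 551 TPM. Its mean fell from 560 ± 15.5 to 462 ± 20.5 TPM (SD, n = 3 per group), with a log2 fold change of -0.28 ± 0.04 (SE, 95% interval -0.36 to -0.19, limma adjusted p = 0.000127). The interval did not meet that of CXCL2 (0.79 to 1.02), CXCL3 (0.51 to 0.76) or CXCL8 (0.69 to 0.85). Non-overlap of the groups was common in these data, since 27.2% of all genes tested were higher and 20.2% were lower without overlap.

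**Figure D2:**
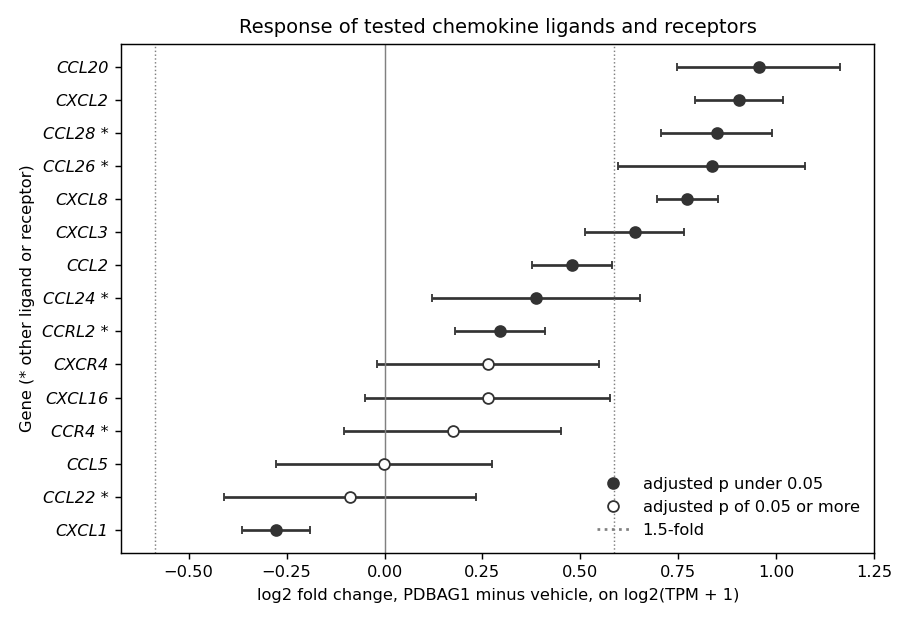
Log2 fold change (PDBAG1 minus vehicle, on log2(TPM + 1)) with its 95% limma interval for the 9 tested members and the 6 other chemokine ligands and receptors tested, marked with an asterisk. CXCL1 is the single filled point left of 0, at -0.28, while CCL20 and CXCL2 lie furthest right, at 0.95 and 0.91, with intervals that overlap.

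Reads can be split wrongly between near-identical copies, and the coding parts of CXCL1, CXCL2 and CXCL3 are alike. CXCL1 was 93.5% identical to CXCL2 and 90.7% to CXCL3, and CXCL2 was 94.4% identical to CXCL3. The longest stretch shared without a mismatch was 77 bases between the canonical transcripts of CXCL1 and CXCL2 and 97 bases between those of CXCL2 and CXCL3. The level of each copy is uncertain to that extent. When the TPM of the 3 genes were added, the vehicle libraries were at 611, 616 and 640 TPM and the PDBAG1 libraries at 574, 551 and 594 TPM. The sum was therefore lower in each PDBAG1 library than in any vehicle library (log2 fold change -0.12 ± 0.04 SE, limma adjusted p = 0.0225). CXCL8 and CXCL5 are more distant from CXCL1, with 51.7% and 61.5% identity of the coding part.

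These opposite movements changed the make-up of the ELR-containing ligands. CXCL8 made up 47.5%, 46.5% and 44.8% of their summed TPM in the vehicle libraries and 60.8%, 62.7% and 61.0% in the PDBAG1 libraries. CXCL1 went from 48.3 ± 1.35% to 31.0 ± 1.12% (SD, n = 3 per group). CXCL8 and CXCL1 were thus about equal with vehicle, with CXCL8 to CXCL1 ratios of 1.01, 0.971 and 0.898, and the ratios were 1.91, 2.11 and 1.94 with PDBAG1. The CXCL1 to CXCL2 ratio was 15.1 ± 0.804 with vehicle and 6.59 ± 0.334 with PDBAG1. The summed level of the 5 ligands went from 1159 ± 7.37 to 1489 ± 30.1 TPM (SD, n = 3 per group). This sum is over chosen members and was not tested.

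**Figure D3:**
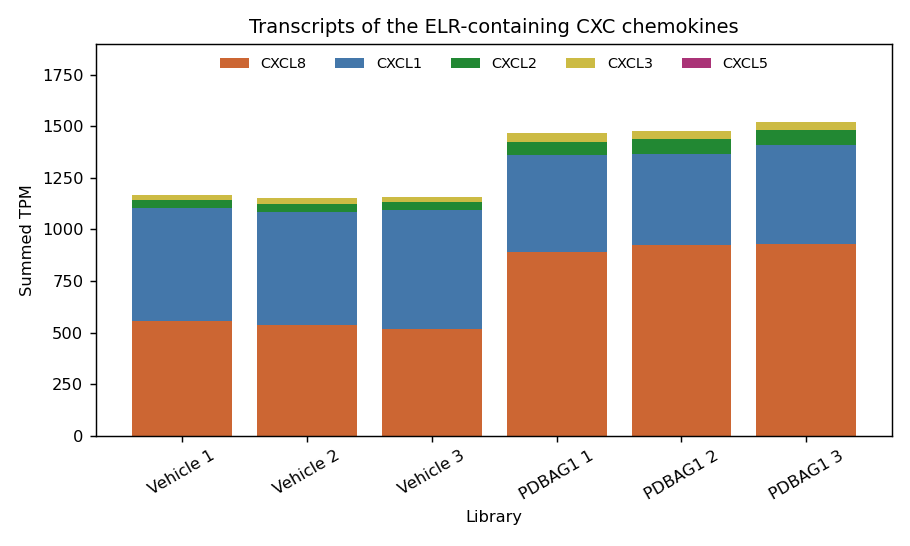
Summed TPM of CXCL8, CXCL1, CXCL2, CXCL3 and CXCL5 in each library, stacked by gene from 0. The bars are between 1151 and 1166 TPM with vehicle and between 1467 and 1523 TPM with PDBAG1, with a wider CXCL8 part and a narrower CXCL1 part.

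CXCL5 stayed off, although its promoter window held the same motif. It was at 0.17, 0 and 0.17 TPM with vehicle and at 0.22, 0.27 and 0.41 TPM with PDBAG1. The PDBAG1 libraries were the higher ones, but all 6 values were under 1 TPM, and the gene did not enter the main test. In a fit without a filter its log2 fold change was 0.22 (limma adjusted p = 0.0826). An annotated lncRNA runs over CXCL5 on the opposite strand, and whether the counting used strand is not given in the sources used here.

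The genes around the cluster were low or moved by 0.30 or less on the log2 scale. Of 19 protein-coding genes from 500 kb before CXCL8 to 500 kb after CXCL2, 15 had a row and 8 were tested. Among the chemokines that lie between CXCL8 and CXCL2, CXCL6 was listed at 0 in 5 of the 6 libraries and PF4, a platelet chemokine, was at 0.41 to 1.47 TPM. Beyond the cluster, EREG and AREG, ligands of the EGF receptor, had log2 fold changes of 0.30 (limma adjusted p = 0.00967) and 0.21 (limma adjusted p = 0.0435). MTHFD2L, a folate enzyme next to CXCL2, had vehicle and PDBAG1 means of 21.4 ± 0.774 and 20.03 ± 1.47 TPM (SD, n = 3 per group), a difference that did not pass the test (log2 fold change -0.10). RASSF6, ALB and AFP were under 1 TPM in every library.

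**Figure D4:**
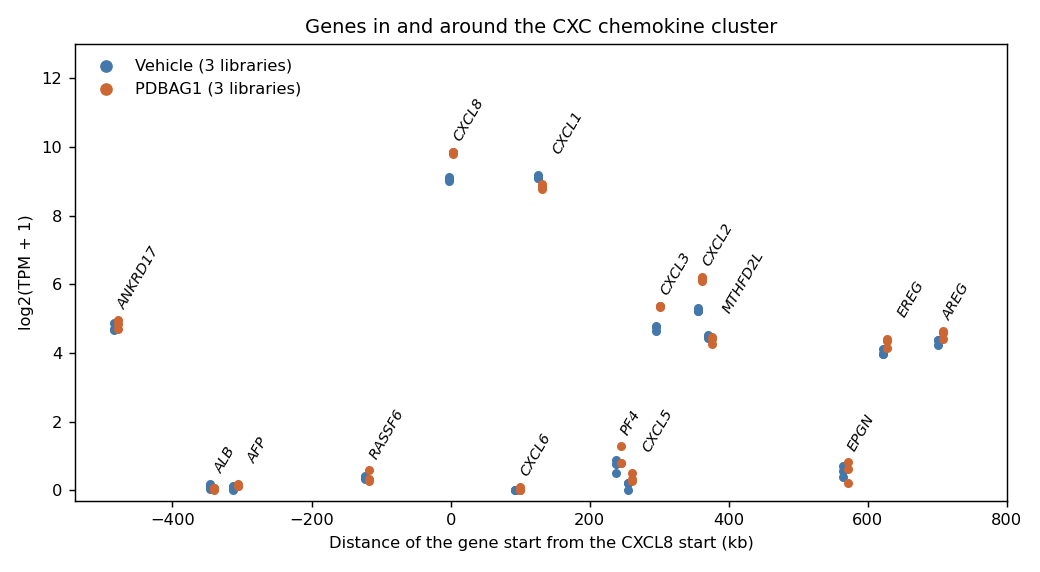
Level as log2(TPM + 1) of the 15 genes with a row in and around the cluster, plotted by the distance of the gene start from the start of CXCL8 in kb, with 3 points per treatment. CXCL8, CXCL3 and CXCL2 are higher with PDBAG1 and CXCL1 is lower, whereas CXCL6, PF4 and CXCL5 between them stay at or under 1.47 TPM.

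Of the CC ligands, CCL2 rose from an already high level. CCL2 (chromosome 17, 34255274 to 34257208) was at 759, 693 and 776 TPM with PDBAG1, all above the highest vehicle library at 549 TPM. Its mean went from 532 ± 25.6 to 743 ± 44.03 TPM (SD, n = 3 per group), 1.40-fold, with a log2 fold change of 0.48 ± 0.05 (SE, limma adjusted p = 4.28e-06). The 95% interval of CCL2 (0.38 to 0.58) did not meet that of CXCL8. With PDBAG1 the CXCL8 to CCL2 ratio was 1.18, 1.34 and 1.197, against 1.01, 1.06 and 0.952 with vehicle.

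CCL20, which attracts CCR6-bearing dendritic and T cells, rose from a low level, with a log2 fold change that could not be told apart from that of CXCL2. It was at 5.29, 4.83 and 5.13 TPM with vehicle and at 9.33, 12.2 and 11 TPM with PDBAG1, without overlap. The ratio of the means was 2.13, while the log2 fold change was 0.95 ± 0.10 (SE, 95% interval 0.75 to 1.16, limma adjusted p = 5.58e-06). CCL20 lies on chromosome 2 (227805739 to 227817564).

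CCL5 did not share this response. It was at 5.59, 3.54 and 4.16 TPM with vehicle and at 4.30, 4.86 and 3.96 TPM with PDBAG1, and the vehicle libraries spanned the whole PDBAG1 range. The log2 fold change was -0.001 (95% interval -0.28 to 0.27, limma adjusted p = 0.996), and a change within this interval was not detectable. The interval of CCL5 did not meet those of CCL2 or CCL20. CCL5 (chromosome 17, 35871491 to 35880793) is overlapped by 1 lncRNA on the opposite strand.

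CXCL16 and CXCR4 were expressed at the limit of the filter. CXCL16 was at 1.29, 0.78 and 1.23 TPM with vehicle and at 1.98, 1.44 and 1.16 TPM with PDBAG1, with overlap (log2 fold change 0.26, 95% interval -0.05 to 0.58, limma adjusted p = 0.174). Its gene (chromosome 17, 4733533 to 4739928) overlaps MED11 and ZMYND15 on the opposite strand. CXCR4, the receptor for CXCL12, was at 1.34, 1.72 and 1.18 TPM with vehicle and at 1.78, 1.58 and 2.35 TPM with PDBAG1, also with overlap (log2 fold change 0.26, 95% interval -0.02 to 0.55, limma adjusted p = 0.133). CXCR4 lies on chromosome 2 (136114349 to 136119177). CXCL12 itself was at 0.03 to 0.31 TPM over the 6 libraries.

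The members also differed in a feature of their mRNAs that bears on mRNA decay. The heptamer TATTTAT, the core of AU-rich elements, was counted on the sense strand in the 3′ UTR of each canonical transcript. CXCL2 held 8 copies, CXCL1 and CXCL8 held 4 each, and CXCL3 and CXCL5 held 3 each. CCL20 and CXCR4 held 1 each, and CXCL16, CCL2 and CCL5 held none. Of the 12367 tested genes with an annotated 3′ UTR, 7.09% held 3 or more copies and 35.8% held any. Among the 4654 whose 3′ UTR was 300 to 1400 bases long, the range of all members but CXCL5, these shares were 1.504% and 21.3%. CXCL1 and CXCL8 held the same number in 3′ UTRs of 772 and 1252 bases, at 5.18 and 3.19 copies per kb. Whether the copies bear on the response to PDBAG1 was not tested.

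Most other chemokines were silent in this line. Of 39 further ligands in a list of the whole family, 24 had a row, the other 15 were not analysed here, and 4 of the 24 were tested. CCL28, which attracts cells to mucosal surfaces, was at 10.4, 10.3 and 10.1 TPM with vehicle and at 19.3, 19.0 and 19.6 TPM with PDBAG1 (log2 fold change 0.85, limma adjusted p = 4.43e-07). CCL26, an eosinophil attractant, went from 5.80 ± 0.945 to 11.1 ± 1.38 TPM (SD, n = 3 per group, with a log2 difference of 0.84, limma adjusted p = 6.26e-05). CCL24, a ligand of the same receptor, CCR3, went from 1.86 ± 0.155 to 2.76 ± 0.595 TPM (log2 fold change 0.39, limma adjusted p = 0.0242). Of the 4 ligands tested, these 3 rose, beside 21.7% of all genes tested. The groups did not overlap in these 3 genes, and 27.2% of all genes tested were likewise higher without overlap. The call of CCL24 was lost without a filter on low TPM (limma adjusted p = 0.0543) and after quantile normalization (0.0839). It was also lost without Vehicle replicate 1 (0.0514), Vehicle replicate 2 (0.0743) or PDBAG1 replicate 1 (0.111). CCL22, named after its value was seen, had a log2 fold change of -0.09 and did not pass the test. Of the 20 that were not tested, none was above 1.47 TPM in any library, and the interferon-induced CXCL10, likewise named after its value was seen, was at 0.09 to 0.55 TPM. CCL3, also named for its values, was listed at 0 in each vehicle library and at 0.70, 0.43 and 0.29 TPM with PDBAG1. Its near-identical copies CCL3L1 and CCL3L3 can share reads with it. In the fit without a filter CCL3 was called higher (log2 fold change 0.55, limma adjusted p = 0.00398). So was CCL17 (0.38, limma adjusted p = 0.0440), at 0.11, 0.21 and 0 TPM with vehicle and 0.66, 0.45 and 0.23 TPM with PDBAG1.

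The receptors for these ligands were likewise close to absent. CXCR2, the receptor of the ELR-containing ligands, was at 0.32 to 0.66 TPM over the 6 libraries. CCR2 was at 0 to 0.12 TPM, CXCR6 at 0.26 to 0.59 TPM and CCR6 at 0.64 to 0.95 TPM. Of 22 further receptors in the list, 18 had a row and 2 were tested. CCRL2, which binds chemerin and does not signal as other chemokine receptors do, was the 1 receptor above 2 TPM, apart from CXCR4 in 1 library. CCRL2 rose from 35.4 ± 1.05 to 43.7 ± 1.62 TPM (SD, n = 3 per group, with a log2 difference of 0.29, limma adjusted p = 0.000773). CCR4 did not pass the test (log2 fold change 0.17, limma adjusted p = 0.311).

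Of 8 proteases that shed or trim chemokines, 5 were tested, and 3 rose, beside 21.7% of all genes tested. ADAM17, a sheddase of CXCL16 and of many cytokines and receptors, went from 26.0 ± 0.930 to 36.8 ± 2.62 TPM (SD, n = 3 per group, with a log2 difference of 0.48, limma adjusted p = 5.62e-05). ADAM10, the other sheddase of CXCL16, was at 59.7 ± 3.88 and 57.3 ± 3.60 TPM and did not pass the test. MMP1 and MMP14, collagen-degrading metalloproteases, had log2 fold changes of 0.41 and 0.95. None of the 5 was lower at an unadjusted p under 0.05 in limma. DPP4, which trims chemokine N termini and was named after its value was seen, missed the threshold after adjustment (log2 fold change 0.26, limma adjusted p = 0.0926). It was called higher without the variance trend (limma adjusted p = 0.0445) and without Vehicle replicate 1 (0.0492).

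Among 20 cytokines, receptors and adaptors listed for a part in chemokine induction, 16 were tested and 10 rose, beside 21.7% of all genes tested. The total called lay between 7 and 12 under the alternative settings. The call of MYD88 (log2 fold change 0.14, limma adjusted p = 0.0429) was lost after median-of-ratios scaling and quantile normalization, among others. None of the 16 was lower at an unadjusted p under 0.05 in limma with TPM as deposited. However, TRAF2, an adaptor of TNF receptors, was called lower after median-of-ratios scaling (log2 fold change -0.18) or quantile normalization (-0.18) and without PDBAG1 replicate 3 (-0.19). The median log2 fold change of the 16 was 0.27. IL1B, IL1A and IL6 rose most, with log2 fold changes of 1.77, 1.10 and 0.88. Of the 7 receptor genes tested, 4 rose, all named here after their values were seen. TNFRSF1B, a TNF receptor, went from 2.50 ± 0.211 to 4.17 ± 0.170 TPM (SD, n = 3 per group, log2 fold change 0.57, limma adjusted p = 0.0005). IL1RAP, the accessory chain of the interleukin-1 receptor, and IL17RA and IL17RC, which form the interleukin-17 receptor, had log2 fold changes of 0.32, 0.33 and 0.18, and the calls of IL17RA and IL17RC were lost under 5 and 9 of 13 alternative settings. TNFRSF1A, the main TNF receptor, missed the threshold (log2 fold change 0.10, limma adjusted p = 0.0892), as did IL1R1 and IL17RD (0.12 and 0.23, limma adjusted p = 0.482 and 0.0629). However, TNFRSF1A was called higher after quantile normalization (limma adjusted p = 0.0415) and without Vehicle replicate 2 (0.0448). IL17RD was called higher without Vehicle replicate 1 (limma adjusted p = 0.0412) or PDBAG1 replicate 1 (0.0374). TNF was under 1.2 TPM in every library and did not enter the main test. It was at 0.63, 0.12 and 0.19 TPM with vehicle and at 1.14, 0.65 and 0.99 TPM with PDBAG1, without overlap. In the fit without a filter on low TPM it was called higher (log2 fold change 0.56, limma adjusted p = 0.0296).

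Of 18 transcription regulators of chemokine genes, 16 rose, beside 21.7% of all genes tested, and the other 2 did not pass the test. The calls of CEBPD, NFKBIE and NFKB1, named here for this, were lost under some of the alternative settings. After median-of-ratios scaling CEBPD and NFKBIE had limma adjusted p values of 0.141 and 0.0552. FOS, JUNB and TNFAIP3 rose most. FOS and JUNB encode AP-1 proteins, and their log2 fold changes were 1.83 and 1.07. TNFAIP3 encodes an inhibitor of NF-kB that NF-kB itself induces, and its log2 fold change was 0.86. NFKBIA, the inhibitor IkB-alpha, went from 246 ± 9.76 to 320 ± 3.45 TPM (SD, n = 3 per group, with a log2 difference of 0.38, limma adjusted p = 6.5e-06), and FOSL1, the most abundant of the list, had a log2 fold change of 0.18, a call that was lost after median-of-ratios scaling and without the variance trend. Of 9 factors listed for a part in mRNA decay or stability, 3 rose, beside 21.7% of all genes tested. These were ZFP36, ZFP36L1 and ZC3H12A, which promote mRNA decay, with log2 fold changes of 0.64, 0.52 and 0.49, named after their values were seen. With TPM as deposited none of the 9 fell, and 2, HNRNPD and ELAVL1, were lower at an unadjusted p under 0.05 in limma. Both were called lower after median-of-ratios scaling (log2 fold changes of -0.15 and -0.17), ELAVL1 also after quantile normalization (-0.16) and HNRNPD also without PDBAG1 replicate 3 (-0.15). HNRNPD, the most abundant of them, had a log2 fold change of -0.11 (adjusted p = 0.0577). Whether any of these changes bears on the chemokines was not tested.

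Markers of leukocytes and endothelium were at or under 9.15 TPM in all libraries. Of 8 leukocyte markers, 6 had a row and 2 were tested, CD14 and LYZ, and neither passed the test with TPM as deposited. CD14 was the most abundant of the leukocyte markers. Its vehicle mean was 7.12 ± 0.516 TPM and its PDBAG1 mean was 6.22 ± 0.265 TPM (SD, n = 3 per group), without overlap. Its log2 fold change was -0.17 (limma adjusted p = 0.143). After quantile normalization CD14 was called lower (log2 fold change -0.27, limma adjusted p = 0.0209). PTPRC, the common leukocyte antigen, was at 0.86 to 1.41 TPM over the 6 libraries, and CSF3R, FCGR3B and ITGAM, markers of granulocytes and macrophages, were at or under 0.06 TPM. PECAM1, an endothelial marker, rose from 3.94 ± 0.152 to 8.64 ± 0.680 TPM (SD, n = 3 per group), while VWF and CDH5 stayed under 0.5 TPM in every library. Summed over the 9 markers with a row, the level was 13.6 to 15.2 TPM with vehicle and 18.02 to 18.8 TPM with PDBAG1, and PECAM1 made this difference. Without PECAM1 the other 8 summed to 9.60 to 11.4 TPM with vehicle and 9.48 to 10.2 TPM with PDBAG1, which overlapped.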

How the data were processed

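RNA from MDA-MB-231 cells was sequenced on the BGISEQ-500 platform according to the methods, whereas the labels name Illumina protocols. The values the authors deposited are TPM, 1 file per library, rounded to 2 decimals and scaled to 1 sum. The methods give HISAT2, GRCh38.p13 and FPKM. The submitters' processing notes name HISAT2 2.0.4, Bowtie2 2.2.5, RSEM 1.2.12 and GRCh38.p12. The step to TPM, strand use and annotation are not given in the sources used here.

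Groups came from the sample titles. Whether the libraries of a group were separate cultures is not stated, so p values measure the spread between libraries. Log2(TPM + 1) values were tested with limma 3.58.1 (R 4.3.3, variance trend), keeping genes with TPM of at least 1 in 3 libraries. An exact permutation test of 3 against 3 cannot go under 0.1 and was not used for calls. In simulated data for this comparison (12582 genes), 86 of 100 genes given 1.5-fold and 98 of 100 given 2-fold changes were recovered. In the same simulation 11 unchanged genes were called. The simulation changed 200 genes and drew the noise of each gene independently, whereas 37.6% of genes tested were called in the data. Its counts therefore need not hold for the data. Members and gene lists were chosen with earlier results of these data known. Named genes of other lists were the 3 most abundant and the 3 with the largest called change, besides receptors or ligands of members. Gene positions are from GENCODE v44, to which 17212 Ensembl identifiers matched.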

Additional observations from a re-analysis of the deposited data

How the results depend on the processing

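The alternatives were no filter on low TPM, 1 TPM or more required of all libraries, a pseudocount of 0.1, median-of-ratios scaling, quantile normalization, no variance trend, the replicate number as a block and each library left out in turn. The 6 members that passed the test kept direction and call under all 13, with log2 fold changes of -0.32 to -0.24 for CXCL1, 0.86 to 0.93 for CXCL2, 0.59 to 0.67 for CXCL3, 0.73 to 0.80 for CXCL8, 0.44 to 0.53 for CCL2 and 0.87 to 1.07 for CCL20. CXCL16 and CXCR4 passed in none, and CXCL16 had no value where all libraries had to reach 1 TPM. The log2 fold change of CCL5 changed sign to 0.0020 with the pseudocount of 0.1 and lay between -0.12 and 0.15 with libraries left out, and it passed in none. With a fold limit of 2, 0 members were called in limma, and 0 at an unadjusted p under 0.05. That count rests on the pseudocount of 1, since CCL20 was at 1.07 with 0.1, and on PDBAG1 replicate 1, without which it was at 1.05. CXCL2 exceeded CCL20 after quantile normalization and without Vehicle replicate 2 or PDBAG1 replicate 2. No scaling moved the median of all genes by over 0.1. With the replicate block, 6 members were called. The numbers have no stated shared origin, and the deviations of libraries with the same number correlated at -0.21, 0.01 and -0.08. Total calls in the other lists stayed within 1.5 times, from 2 to 4 for the 3 other ligands, 7 to 12 for the 10 inducing genes and 16 to 19 for the 19 regulators, but their direction did not. Lower calls went from 0 to 1 among the inducing genes, and from 0 to 2 among the regulators with median-of-ratios scaling and to 1 with quantile normalization or without PDBAG1 replicate 3. Depth cannot be recovered from TPM, so the counting error of members near 1 TPM is unknown.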

Other observations

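Over the 6 libraries, the tested genes whose log2(TPM + 1) followed that of CXCL8 most closely were GBE1, ERRFI1, ROBO4, PLEKHM1 and LONP1, each with a Pearson correlation over 0.999. GBE1, the glycogen branching enzyme, was at 71.0, 68.7 and 67.0 TPM with vehicle and at 108, 112 and 113 TPM with PDBAG1. ERRFI1, a feedback inhibitor of the EGF receptor, was at 237, 226 and 210 TPM with vehicle and at 499, 535 and 546 TPM with PDBAG1. In all, 1248 genes had a correlation over 0.95. The libraries fall into 2 treatments, so that any gene with a steady difference between them follows CXCL8, and no shared control is read from this.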
